A study of Rattus norvegicus and Mus musculus with 18 samples.

Results

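The ureteric bud stalk of the mouse kidney at embryonic stage E12.5 was compared with the bud tip and the metanephric mesenchyme together, and genes whose stalk level lay outside the range of both other tissues were singled out. The comparison used the 6 mouse arrays of an 18-array Affymetrix series, of which the other 12 hold rat tissue. A mixture of tip and mesenchyme RNA in any proportion would lie between both levels, so the comparison asks what the stalk pool held that such a mixture would not. Of 12368 genes tested, 40 were above both tissues and 1 was below both, each by at least 2-fold with an adjusted p under 0.05 against tip and against mesenchyme.

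The groups were mouse ureteric bud stalk, mouse ureteric bud tip and mouse metanephric mesenchyme, all dissected at E12.5, when the bud has branched. The labels name no strain, allele, sex or treatment other than the enzymes used to free the tissues. Stalks came from a pool of about 350, tips of about 1000 and mesenchymes of about 300. Both arrays of a tissue were separate labelings of 1 pooled RNA, so every p-value below measures the spread of labelling and hybridisation, not that between embryos, and the number of arrays limits the precision. Per the labels, inspection and staining with a lectin that binds the bud were used against mixing of bud and mesenchyme. In bulk tissue, fewer cells of a type and less RNA per cell cannot be told apart.

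The ureteric bud is an epithelial tube. Its tips branch under GDNF from the mesenchyme, signalled through the receptor Ret, while the stalk elongates into collecting duct and, at its outer end, ureter. Stalk epithelium secretes Sonic hedgehog, which acts through the receptor Ptch1 and Gli transcription factors on the mesenchyme wrapped around it, and this peri-stalk mesenchyme, marked by Tbx18 and later contractile, forms the ureter wall. The metanephric mesenchyme proper holds nephron progenitors and stromal precursors.

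The stalk arrays correlated with each other at r = 0.998 over all probe sets, and with the mesenchyme arrays at 0.984 to 0.987 and the tip arrays at 0.974 to 0.982, as a description across genes. A probe set was tested where the mean of at least 1 tissue reached an intensity of 49.3, the testing floor. The labelled epithelium was present in the stalk pool. Cdh1 had an intensity of 1308 and 1360.2 in the stalk arrays, against 1952 and 1938 in tips and 18.1 and 13.2 in mesenchyme, and this adhesion molecule of epithelia was thus far above the mesenchyme level. Stromal genes were present as well. Col1a1 had an intensity of 924 and 924 in the stalk arrays, against 80.7 and 55.6 in tips and 866 and 789 in mesenchyme, so this fibrillar collagen differed by 0.16 between stalk and mesenchyme. All values are intensities after quantile normalisation, and differences are on the log2(intensity + 16) scale, which understates those of dim genes.

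The genes above both tissues came from several classes. They held 8 transcription factors, 7 matrix or secreted proteins, 7 enzymes, 6 adhesion or guidance molecules, 3 Wnt pathway modulators, 3 receptors, 2 ligand precursors and 4 others, 1 of which has no role given here. The 40 genes were 0.323% of those tested, and the margin, which is the smaller of the differences from tip and from mesenchyme, ran from 1.01 to 2.99 with a median of 1.38. In 35 of the 40 the mesenchyme was the nearer tissue and in 5 the tip. Mesenchyme was called higher than tip in 16 of them, and tip was called higher than mesenchyme by limma in 0, with 24 not called between these tissues. At an unadjusted limma p under 0.05, mesenchyme was higher in 29 and tip in 1. Over all genes tested, at a 4-fold limit, 209 were called higher in tip and 188 in mesenchyme. The calls among the 40 used a 2-fold limit, so these counts are at unlike limits. The share of all genes with mesenchyme as the nearer tissue is not given here. Both stalk arrays lay above all 4 other arrays in each of the 40, as they did in 1211 genes (9.79%) of those tested, and the highest adjusted p among the 40 by limma was 0.00225 against tip and 0.00745 against mesenchyme. At the edge of the 2-fold limit, Sfrp2 and Iigp1 lay just inside with margins of 1.01 each, and Hhip and Car13 just outside with 0.99 and 0.98.

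**Figure D1:**
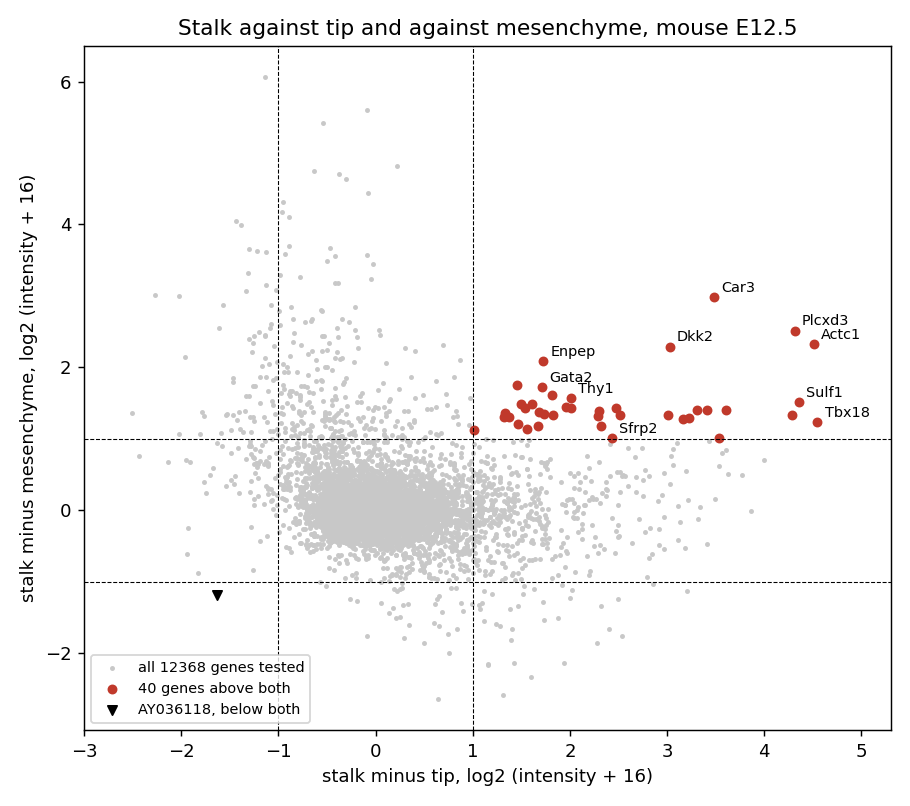
Each point is 1 of the 12368 genes tested, with the stalk minus tip difference on the x axis and the stalk minus mesenchyme difference on the y axis, both on the log2(intensity + 16) scale, and dashed lines at 2-fold. The 40 genes above both tissues fill the upper right corner, led by Car3, Plcxd3, Actc1 and Dkk2, and AY036118 is the only gene in the lower left corner.

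Only 4 of the 40 exceeded both tissues by over 4-fold. Car3, a cytosolic carbonic anhydrase known from muscle and fat, led them. Car3 had an intensity of 2769 and 2924 in the stalk arrays, against 258 and 221 in tips and 351 and 339.8 in mesenchyme, which is 11.2-fold over tip and 7.92-fold over mesenchyme (log2 3.49 and 2.99, SE 0.07 each). Car3 was the brightest of the 40 genes in stalks, and it was above the testing floor in both other tissues too. Plcxd3 had an intensity of 853 and 695 in the stalk arrays, against 31.8 and 16.6 in tips and 124 and 120.0 in mesenchyme (log2 4.32 and 2.51, SE 0.18). Plcxd3 encodes a protein with a phospholipase C domain, and its tip arrays lay below that floor. Actc1, the cardiac-type actin that embryonic smooth muscle also makes, read 1532 and 1689.8 in stalks, 48.2 and 63.3 in tips and 308 and 309.9 in mesenchyme (log2 4.51 and 2.32, SE 0.11). Dkk2, a secreted modulator of Wnt co-receptors, read 246 and 226 in stalks, 15.5 and 14.3 in tips and 38.3 and 32.95 in mesenchyme (log2 3.03 and 2.29, SE 0.13). For Dkk2 both other tissues lay below that floor, as they did for 7 of the 40 genes (Dkk2, Avpr1a, Cldn11, Foxa1, Fut9, Penk and Zfp536), which were tested only through their stalk level. With a pseudocount of 1 in place of 16, 5 genes exceeded both by over 4-fold (Fut9 in addition), and with 64 it was 3, without Dkk2 (margin 1.59).

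**Figure D2:**
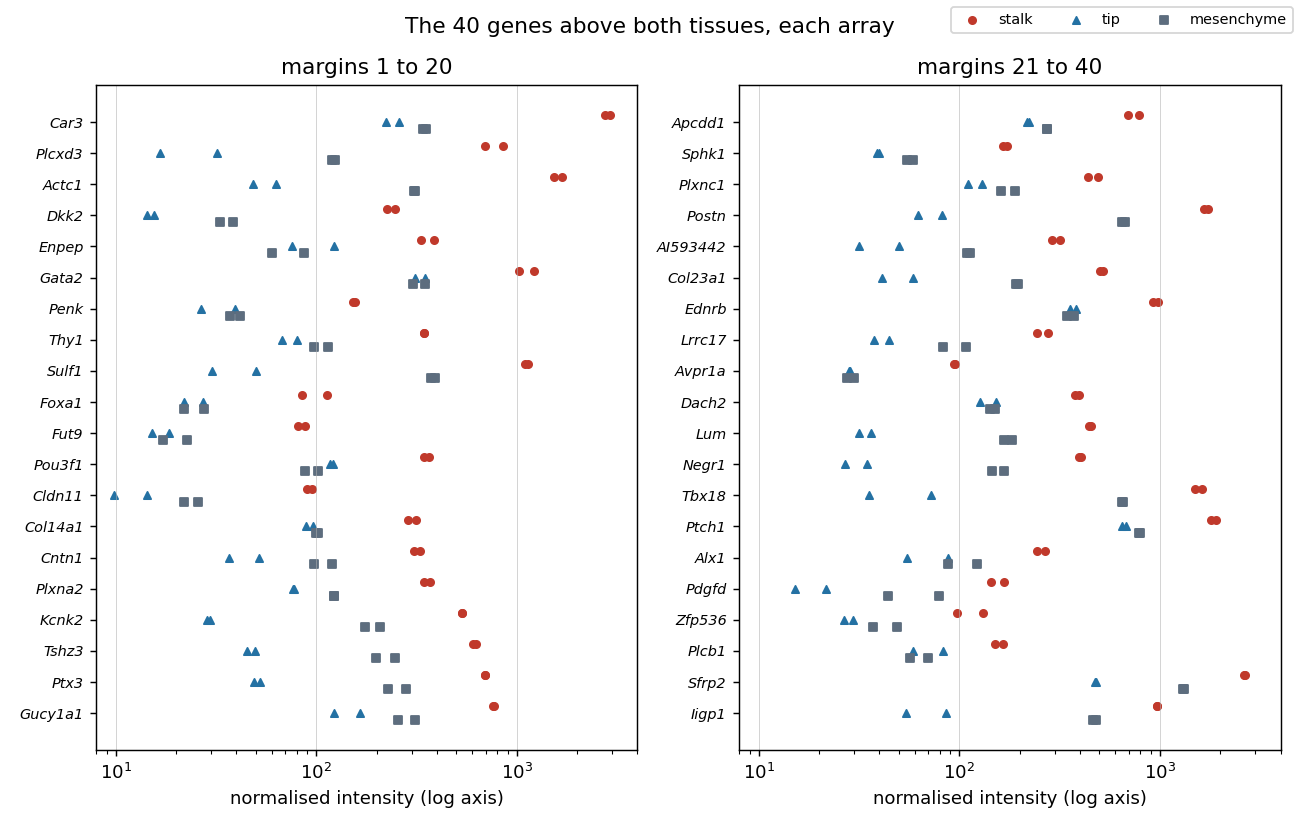
Normalised intensity (log axis) of the 40 genes above both tissues, ordered by margin, with 1 point per array and 2 arrays each for stalk, tip and mesenchyme. In every gene both stalk points lie to the right of the other 4, and in most the mesenchyme points lie nearer to them than the tip points.

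Among the 8 transcription factors, margins ran from 1.14 to 1.71. Gata2 had an intensity of 1023 and 1218 in the stalk arrays, against 310.4 and 351 in tips and 304 and 350.3 in mesenchyme. Gata2, a zinc finger factor needed for urogenital development in the mouse, was at the same level in tip and mesenchyme (difference 0.01) and 3.27-fold and 3.31-fold higher in stalks. Foxa1, a forkhead factor of endoderm and urothelium, had the same shape at lower signal, with 113 and 84.8 in stalks, 21.8 and 27.3 in tips and 27.6 and 21.8 in mesenchyme. The POU factor Pou3f1 read 364 and 346 in stalks, 121 and 118 in tips and 102 and 87.4 in mesenchyme. For Gata2 and Pou3f1, tip and mesenchyme thus lay below the stalk and above the testing floor, while for Foxa1 both lay below that floor. Tbx18, the factor that marks the mesenchyme around the ureter, differed in shape. Tbx18 had an intensity of 1620.1 and 1500.2 in the stalk arrays, against 72.2 and 35.5 in tips and 658 and 650.3 in mesenchyme, a log2 difference of 4.55 from tip and 1.23 from mesenchyme. Tshz3, a zinc finger factor required in the mouse for smooth muscle of the ureter, followed the same order, with 624 and 603 in stalks, 49.7 and 45.3 in tips and 248 and 198 in mesenchyme. In both, mesenchyme lay well above tip and stalk well above mesenchyme. Dach2, Alx1 and Zfp536 completed the class with margins of 1.30, 1.18 and 1.14. A test against a 1.5-fold difference ended the call of Tbx18, Foxa1 was not called above both with a pseudocount of 64, and Alx1 and Zfp536 failed in both.

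The 7 matrix or secreted proteins had margins of 1.29 to 1.52, and in 5 of them mesenchyme was called higher than tip. Sulf1 had an intensity of 1143 and 1102 in the stalk arrays, against 50.3 and 30.3 in tips and 389 and 375 in mesenchyme. Sulf1 removes sulphate groups from heparan sulphate outside the cell. Postn had an intensity of 1734 and 1656 in the stalk arrays, against 82.2 and 62.3 in tips and 672 and 651 in mesenchyme. Postn, a matricellular protein of connective tissue, and the small proteoglycan Lum (452 and 446 in stalks, 36.1 and 31.7 in tips and 183 and 166 in mesenchyme) had the order stalk, mesenchyme, tip. The fibril-associated collagen Col14a1 did not, with 286 and 313 in stalks, 89.1 and 95.9 in tips and 102 and 99.7 in mesenchyme. For Col14a1, tip and mesenchyme were close, and the stalk was 2.91-fold and 2.71-fold higher. Ptx3, Col23a1 and Lrrc17 had margins of 1.40, 1.33 and 1.32. Averaging all probe sets of a gene ended the call of Sulf1 and Lrrc17.

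Wnt modulators, adhesion molecules and receptors followed. Besides Dkk2, the Wnt inhibitor Apcdd1 read 785 and 694 in stalks, 217 and 223 in tips and 273 and 274 in mesenchyme. Sfrp2, a secreted Wnt-binding protein, was the second brightest of the 40 in stalks, with 2628 and 2668 in stalks, 479 and 477 in tips and 1315 and 1303 in mesenchyme, and its margin of 1.01 fell under the limit without the second stalk array. Thy1, a membrane-anchored immunoglobulin protein, read 343 and 345 in stalks, 80.5 and 67.3 in tips and 114 and 97.5 in mesenchyme. The tight junction protein Cldn11 and the neural adhesion molecule Cntn1 had margins of 1.45 and 1.43. Cldn11 was the dimmer of them, with 90.3 and 95.2 in stalks, 14.4 and 9.82 in tips and 25.7 and 21.98 in mesenchyme, and was not called with a pseudocount of 64, while Cntn1 read 328 and 307 in stalks, 51.9 and 36.7 in tips and 119 and 97.2 in mesenchyme. The semaphorin receptors Plxna2 and Plxnc1 and the adhesion molecule Negr1 had margins of 1.43, 1.34 and 1.28. All 6 adhesion or guidance molecules had their lowest mean in tips, and mesenchyme was called higher than tip in 2 of them.

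Of the 3 receptors, Ptch1 is taken up with the hedgehog genes. Ednrb had an intensity of 928 and 975 in the stalk arrays, against 382 and 356 in tips and 372 and 346 in mesenchyme. Ednrb, a receptor for endothelins, thus had tip and mesenchyme at one level and stalk 2.51-fold and 2.58-fold above. The vasopressin receptor Avpr1a read 95.5 and 94.3 in stalks, 28.3 and 28.6 in tips and 29.9 and 27.5 in mesenchyme and was not called with a pseudocount of 64. The ligand precursors were Penk, which encodes the precursor of enkephalins, with 152 and 156 in stalks, 39.2 and 26.5 in tips and 37.2 and 41.6 in mesenchyme, and the growth factor Pdgfd with a margin of 1.18. Pdgfd, Plcb1 and Zfp536 lost their calls in 5 of the 15 other settings tried, and Alx1 in 4, while 23 of the 40 genes kept theirs in all 15. Iigp1 lost its call in 3 of them, Fut9, Sfrp2 and Sphk1 in 2 each, and Apcdd1, Avpr1a, Cldn11, Foxa1, Lrrc17, Plxnc1, Ptch1, Sulf1 and Tbx18 in 1 each.

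The enzymes, besides Car3 and Plcxd3, were Enpep, Fut9, Gucy1a1, Sphk1 and Plcb1. Enpep, the aminopeptidase that cleaves angiotensin, read 385 and 334 in stalks, 123 and 75.9 in tips and 86.7 and 59.9 in mesenchyme, and here the tip was the nearer tissue. Fut9, which makes the Lewis x carbohydrate, read 80.6 and 87.97 in stalks, 18.4 and 15.2 in tips and 22.8 and 17.1 in mesenchyme and lay below the testing floor in tips and mesenchyme. Plcb1 had a margin of 1.01, and 1 of its 3 tested probe sets showed no margin at all. The potassium channel Kcnk2 (1.41), the interferon-inducible GTPase Iigp1 (1.01) and AI593442 (1.33) made up the rest of the 40.

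Probe sets of the same gene mostly moved together. Of the 40 genes, 18 had 1 tested probe set and 22 had several, and all tested probe sets were above both in 9 of the 22 and had a margin above 0 in 21. By probe sets, 71 of 23971 (0.296%) were above both, of which 68 carried a single gene symbol and 3 none, for 48 distinct symbols. The 8 symbols not among the 40 were Usp2, Zeb2, Tspan8, Nfix, Cplx2, Foxq1, Dkk3 and Lypd6, where another probe set passed and the one used here, the brightest by mean log2 intensity over the 6 arrays, did not.

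Ligand, receptor and induced genes of the hedgehog pathway were higher in stalks. Of 13 tested hedgehog genes 4 were called higher than the mean of tip and mesenchyme, against 1.82% of all genes tested. The gene lists here and below were chosen with earlier results of these data known. Set beside the share of all genes, their counts therefore describe and do not test. Shh had an intensity of 588 and 511 in the stalk arrays, against 321 and 344 in tips and 96.8 and 97.05 in mesenchyme. Shh, the ligand, was higher in stalks than the mean by 1.51 (SE 0.08, adjusted p = 6.75e-06 by limma), but over tip alone by 0.69, under 2-fold. Ptch1 had an intensity of 1903 and 1805 in the stalk arrays, against 677 and 649 in tips and 792 and 793 in mesenchyme. Ptch1, the receptor that is itself induced by the pathway, was above both, by 1.46 over tip and 1.21 over mesenchyme. Gli1, an effector that the pathway also induces, read 167 and 198 in stalks, 50.5 and 49.8 in tips and 79.5 and 89.2 in mesenchyme, and its margin of 0.98 fell just under the limit. Hhip, an induced inhibitor that binds the ligand, read 67.6 and 65.3 in stalks, 20.7 and 22.4 in tips and 22.4 and 28.7 in mesenchyme, with a margin of 0.99. Both other tissues lay below the testing floor of 49.3 for Hhip, so it was tested only through its stalk level. In all 4 genes both stalk arrays exceeded the other 4, as they did in 9.79% of all genes tested. The other 9 members were not called, among them Smo (0.11), Gli2 (0.23), Gli3 (0.24) and Gas1 (0.16), and the list median was 0.16 against -0.04 over all genes. Averaging all probe sets of a gene ended the above-both call of Ptch1. Hhip was not called higher than the mean with a pseudocount of 64 or in the test against a 1.5-fold difference.

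**Figure D3:**
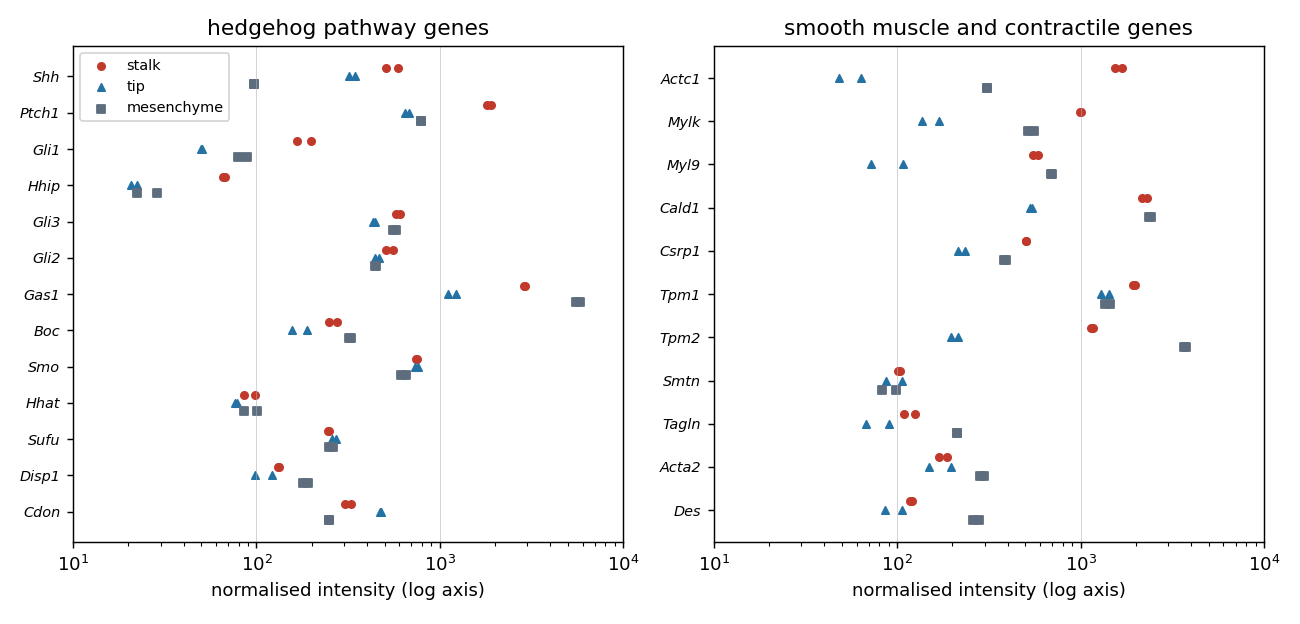
Normalised intensity (log axis) of the 13 tested hedgehog pathway genes and the 11 tested smooth muscle and contractile genes, ordered by the stalk difference from the mean of tip and mesenchyme, with 2 arrays per tissue. Shh, Ptch1, Gli1, Hhip, Actc1 and Mylk have both stalk points to the right of the other 4, while Acta2, Tagln and Des have their mesenchyme points to the right.

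Many genes of the peri-stalk and ureteric mesenchyme were higher in stalks. Of 16 tested, 8 were called higher than the mean and 4 were above both (Tbx18, Tshz3, Ptch1 and Sfrp2), where all genes gave 1.82% and 0.323%. This list too was chosen with earlier results of these data known, which limits what its counts can support. Bmp4 had an intensity of 1033 and 1046 in the stalk arrays, against 174 and 190.0 in tips and 540.1 and 532 in mesenchyme. Bmp4, a signal required for ureter muscle in the mouse, had a margin of 0.93. Tcf21, a factor of kidney mesenchyme, and Tbx3 were called higher than the mean by 1.52 and 1.18, but Tbx3 lay within the range, below tip. The list median was 1.09.

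Contractile genes were split. Of 11 tested, 3 were called higher than the mean, where 1.82% of all genes were. They were Actc1, the light chain kinase Mylk (1.74) and the light chain Myl9 (1.09), and the list median was 0.50. Myl9 lay within the range, below mesenchyme, where a 2-fold excess over the linear mean cannot occur. Mylk read 994 and 1008 in stalks, 168 and 137 in tips and 518 and 560.4 in mesenchyme, above both by less than 2-fold. The mature smooth muscle proteins stood elsewhere. Acta2 had an intensity of 169 and 187 in the stalk arrays, against 148 and 197 in tips and 283 and 298 in mesenchyme. Acta2, the smooth muscle actin, differed from the mean by -0.30, Tagln by -0.14 and Des by -0.41, none of them called. Skeletal and cardiac muscle markers were searched because Actc1 is also one of them. Of 14 on that list 7 were tested and Actc1 alone was called, against 1.82% of all genes. Myog, a skeletal muscle factor, averaged 40.3 ± 2.38 in stalks, 51.8 ± 17.3 in tips and 42.9 ± 0.05 in mesenchyme (SD, n = 2 arrays each), around the testing floor, and Nkx2-5, of the heart, read 73.98 and 78.9 in stalks, 76.8 and 107 in tips and 73.6 and 110.5 in mesenchyme.

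Stalk and urothelial epithelial markers had 6 of 18 tested members called higher than the mean, where 1.82% of all genes were. Krt8 and Krt18, keratins of simple epithelia, were higher by 2.16 each, Cldn4 by 2.06 and Krt7 by 1.72, and all 4 lay within the range of tip and mesenchyme. A level within the range cannot exceed the linear mean of tip and mesenchyme by 2-fold, so these 4 calls rest on the mean of log2 values. Stalk means did lie above the linear mean, with 2581 against 1720 for Krt8 and 2158 against 1373 for Krt18. For Cldn4 they were 1694 against 1342, and for Krt7 466 against 252. Krt7 had an intensity of 462 and 471 in the stalk arrays, against 495 and 454 in tips and 36.4 and 20.97 in mesenchyme, so the stalk and tip arrays overlapped for this keratin. Shh and Foxa1 were the others, and Foxa1 alone was above both. Against tip alone, only 1 of the 18 was called higher, and the list median was -0.20. In 6 of the 18 the stalk lay below both other tissues, as it did in 4673 of all 12368 genes. Wnt7b, the first on the list, averaged 245 in stalks, 249 in tips and 127 in mesenchyme and was not called. The uroplakins, proteins of the mature urothelium, were not called, with differences from the mean of -0.33 for Upk1a, -0.16 for Upk1b and -0.31 for Upk2.

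Calls against the mean alone do not show that a gene is outside the range. Of the 225 genes called higher than the mean (1.82%), 40 were above both, 119 were above the range by under 2-fold on at least 1 side, and 66 were within it, 41 of these with tip above mesenchyme and 25 with mesenchyme above tip. The mean of 2 log2 values lies below the log2 of their linear mean, which places a gene of equal parts tip and mesenchyme above it. Against the linear mean, 114 genes were higher, of them 40 above both, 74 above the range and 0 within it. That 0 was fixed in advance, since a level within the range cannot be 2-fold over the linear mean. Of the 66 genes within the range, 54 had a stalk mean above the linear mean. The share of higher calls was 97.4% against the log2 mean and 80.9% against the linear mean. The highest differences within the range were those of Cldn8 (2.76), Calb1 (2.46), Cdh1 (2.44) and Tfcp2l1 (2.18), all epithelial genes.

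On the lower side, 6 genes (0.0485%) were called below the mean and 1 (0.00809%) was below both. AY036118 had an intensity of 1162 and 1149.9 in the stalk arrays, against 3707 and 3526 in tips and 2579.5 and 2714 in mesenchyme. No role is given here for AY036118, and its differences were -1.63 from tip and -1.18 from mesenchyme. By probe sets 6 (0.025%) were below both, of which 4 carry no gene symbol and 1 belongs to the transcription factor Sox11, with 357 and 362 in stalks, 1286 and 1191 in tips and 771 and 757 in mesenchyme. The brightest Sox11 probe set differed by -0.17 from tip and 0.14 from mesenchyme, so the probe sets of this gene disagree. Etv4 and Etv5, factors induced by Ret signalling in tips, Cxcr4, a chemokine receptor, and Btbd11 lay below the range by less than 2-fold on 1 side. Etv4 had an intensity of 172 and 162 in the stalk arrays, against 680.4 and 694 in tips and 253 and 275 in mesenchyme. Cxcr4 read 139.8 and 120.2 in stalks, 549 and 460.3 in tips and 247 and 254 in mesenchyme (margin -0.87, and that of Btbd11 was -0.83, the values nearest the limit). Meox1, of nephron progenitors, was called lower than the mean right at the 2-fold limit and lay within the range. Meox1 and Btbd11 were not called with values as deposited, with each array divided by its median or with a pseudocount of 64, each of which left 4 genes lower. Averaging probe sets also ended the call of Btbd11 (-0.94), and leaving out the first stalk, first mesenchyme or second tip array that of Meox1 (-0.961 to -0.999).

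Stalk levels of genes that differed between tip and mesenchyme were set on a scale between both. Position was taken per gene on linear intensities as the stalk minus mesenchyme difference over the tip minus mesenchyme difference, so that 0 is the mesenchyme level and 1 the tip level. It is given for genes at least 4-fold apart between those tissues, as a description without a test. Over the 209 genes higher in tip the median was 0.438 (quartiles 0.327 and 0.58), with 0 genes below 0 and 3 above 1. Over the 188 genes higher in mesenchyme it was 0.347 (quartiles -0.07 and 0.604), with 52 below 0, above the mesenchyme level, and 0 above 1.

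Among genes higher in tip, position differed by list. The 9 ureteric bud tip markers lay between 0.09 and 0.211 with a median of 0.118, near the mesenchyme level on this linear scale. Ret, the GDNF receptor, was at 0.19, with 298 and 309 in stalks, 1572 and 1490.3 in tips and 19.8 and 27.4 in mesenchyme, which is still 8.11-fold over mesenchyme on the log2(intensity + 16) scale (limma adjusted p = 2.97e-07). Wnt11, a ligand of branching tips, was at 0.10. The 18 epithelial junction and polarity genes spanned 0.355 to 0.938 with a median of 0.505. The 5 stalk and urothelial markers that were higher in tip, Cldn4, Wnt9b, Krt8, Krt18 and Krt7, spanned 0.636 to 0.981 with a median of 0.763. At the top, 3 genes exceeded the tip level. Cdh16, the kidney cadherin of ducts, was at 1.17, with 2049.5 and 2212 in stalks, 1833 and 1827 in tips and 58.4 and 61.1 in mesenchyme, Elf5, an epithelial ETS factor, at 1.04 and Fosl2, an AP-1 member, at 1.03.

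Among genes higher in mesenchyme the lists separated further. The 14 nephron progenitor genes had a median of 0.801, near the tip level on this linear scale, from 0.31 for Itga8 to 0.936 for Meox1. In log2 terms the stalk was not at the tip level for this list. Over its 17 tested members, the median log2 difference of the stalk was 1.11 from tip and -1.55 from mesenchyme. Of these 17, 9 were called higher in stalks than in tips. Six2, which maintains nephron progenitors, read 153 and 155 in stalks, 105 and 105 in tips and 563 and 633 in mesenchyme, and Eya1, a co-activator that acts beside it, read 489 and 472 in stalks, 127 and 101 in tips and 2132 and 2212 in mesenchyme. Both stalk levels lay nearer to tip than to mesenchyme. The 15 stromal and interstitial genes had a median of 0.183, with 7 of them below 0, and the 10 fibrillar matrix genes a median of -0.22, with 8 below 0. Pdgfra had an intensity of 1564 and 1608 in the stalk arrays, against 183 and 132 in tips and 1363 and 1509 in mesenchyme. Pdgfra, a growth factor receptor of stroma, differed by 0.14 from mesenchyme. Foxd1, which marks cortical stroma, lay lower, with 889 and 832 in stalks, 99.6 and 62.1 in tips and 1922 and 1889 in mesenchyme and a position of 0.57. The 10 Hox genes in this set had a median of 0.443, from 0.337 to 0.631. The progenitor and stromal lists overlapped in position, since Itga8, Hoxa11 and Hoxd11 lay below 0.5 and the stromal guidance ligand Ntn1 at 0.881.

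**Figure D4:**
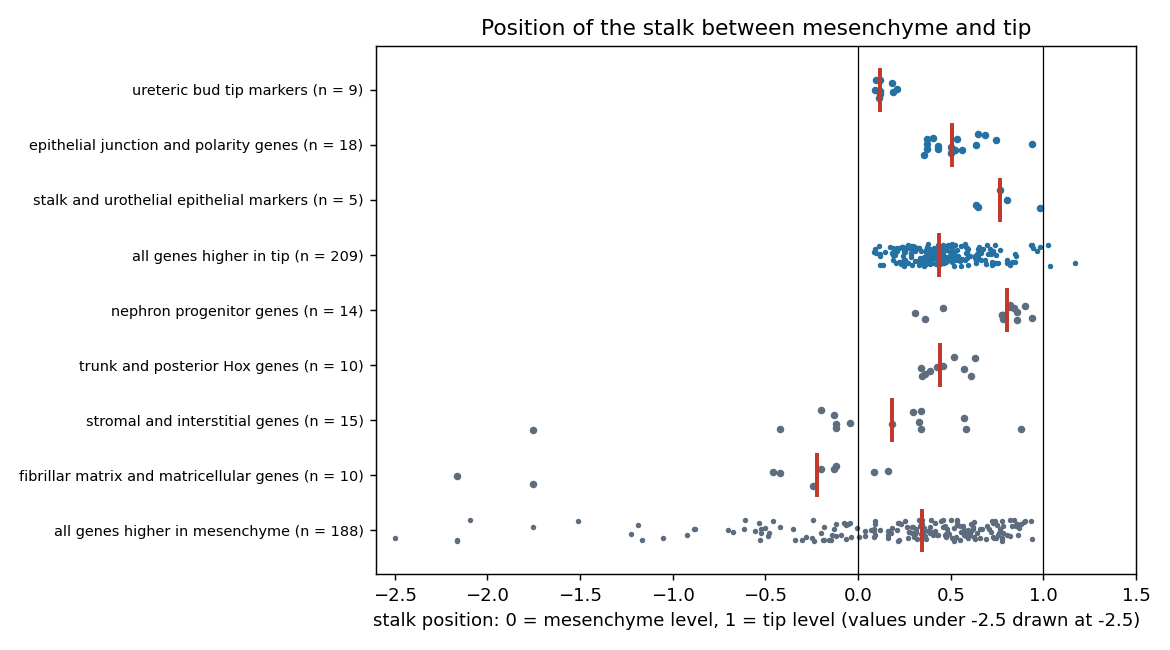
Stalk position between the mesenchyme level (0) and the tip level (1), with 1 point per gene at least 4-fold apart between tip and mesenchyme and a red bar at each median. Tip markers have a median of 0.118 and the 5 stalk and urothelial markers that were higher in tip one of 0.763, while nephron progenitor genes sit at 0.801 and stromal and matrix genes at 0.183 and -0.22.

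Stromal and matrix genes gave 22 distinct calls higher than the mean, of the 225 that made up 1.82% of all genes, with 6 genes called on both lists. Of 24 stromal and interstitial genes tested, 14 were called higher than the mean and Postn and Lum were above both, with a list median of 1.21. Of 31 fibrillar matrix and matricellular genes, 14 were called and Col14a1, Postn, Lum and Sulf1 were above both, with a median of 0.99. The collagens Col1a1, Col1a2 and Col3a1 were higher than the mean by 1.83, 1.58 and 1.52, but over mesenchyme by 0.16, 0.42 and 0.14. Of 23 BMP and TGF-beta genes 5 were called, Bmp4, Tgfb2, Tgfb3, Fst and Bmper, and 0 were above both. Of 26 epithelial junction genes 9 were called and all 26 lay within the range, where a 2-fold excess over the linear mean cannot occur. Among 24 immediate-early genes, Fosl2 and Egr3 were called, and the list median was 0.48. In 18 of the 24 the stalk mean lay above both other tissues, as it did in 2296 of the 12368 genes tested.

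Markers of several other cell types that the pool could hold were not called, which is near the background of 1.82% for lists this short. By limma 0 members were called against the mean among 15 endothelial, 7 erythroid, 13 macrophage, 10 neuronal and 5 adrenal or gonadal genes tested, and 4, 3, 0, 1 and 1 of them were higher at an unadjusted p under 0.05, while 3 of the neuronal genes were lower. The share of all genes at that unadjusted limit is not given here. The summed endothelial intensity was 3105 and 3250 in stalks, 1641 and 1731 in tips and 4831 and 4930 in mesenchyme, so it lay between both. The summed erythroid intensity was 16810 and 16770 in stalks, against 8963 and 9539 in tips and 22730 and 22490 in mesenchyme. Neither sum was highest in stalks, nor were the macrophage and neuronal sums. The adrenal or gonadal sum was, at 878 in stalks, 727 in tips and 556 in mesenchyme. Of that sum, Sox9 gave 599, 449 and 191. Matn2 alone was called among 7 cartilage and tendon genes, and Tbx18 alone among 6 mesothelial ones. The cartilage and tendon sum was also highest in stalks, at 2573 against 1758 in tips and 1778 in mesenchyme. So was the mesothelial sum, at 3322 against 2435 in tips and 2519 in mesenchyme. The part of these cells in the genes above both was not tested.

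In the remaining lists 0 to 4 members were called higher than the mean, where 1.82% of all genes were. Basement membrane genes had 3 of 20 higher, Nid1, Nid2 and Frem1, and the Wnt list 3 of 22, Dkk2, Sfrp2 and Dkk3. The axon guidance list had 4 of 21 higher, with the semaphorin Sema3c, the ephrin receptors Epha3 and Epha7, and Plxna2. Apcdd1 and Plxnc1, grouped above by role, are not on these lists and so are not in these counts. Early nephron genes had 1 of 15 (Pou3f3), retinoid genes 1 of 14 (Aldh1a3), heat shock genes 1 of 18 (Hspa1b) and Hox genes 1 of 21. The Hox gene was Hoxd13, with 108 and 126 in stalks, 34.4 and 27.6 in tips and 66.05 and 59.6 in mesenchyme, above both by less than 2-fold. By limma 0 of 27 cell cycle, 0 of 16 glycolysis and 0 of 14 imprinted genes were called, and 15, 9 and 2 of them were lower, and 4, 2 and 7 higher, at an unadjusted p under 0.05. The share of all genes at that unadjusted limit is not given here, so these counts have no background. Over all 12368 genes the stalk lay below both other tissues in 4673 and above both in 2296.

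In rat, the whole bud was compared with mesenchyme at E13.5, from about 1200 buds and 240 mesenchymes, on arrays that played no part in choosing the mouse genes. The rat bud was not divided, so this gives the side of the rat dissection on which each gene lies. Of the 40 genes, 24 were on a rat array by symbol and 8 reached the testing floor. In the bud 0 of the 8 were called higher, where 2.87% of 7572 rat genes were, and 1 was called higher in mesenchyme, where 2.13% were. At an unadjusted limma p under 0.05, 0 of the 8 were higher in bud and 4 in mesenchyme. The share of all rat genes at that unadjusted limit is not given here. The called gene was Sfrp2, with 446 and 454 in rat bud, against 1812 and 1576 in rat mesenchyme (log2 -1.87, limma adjusted p = 0.000519). Gucy1a1 differed by -0.72 and Tshz3 by -0.45, both below 2-fold with limma adjusted p = 0.0316 and 0.044, and so not called. Cldn11 differed by -0.32, Gata2 by -0.12, Kcnk2 by -0.07, Thy1 by -0.06 and Car3 by 0.22, with limma adjusted p of 0.082 to 0.712. The rat bud labelings were less alike (r = 0.981 to 0.985) than the mesenchyme labelings (0.993 to 0.996), and without either bud labeling Sfrp2 was again the single call.

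For 29 of the 40 genes a rat promoter of the same symbol was at hand, from RefSeq's rat assembly GRCr8, holding 250 bases before and 50 after the gene start. Mouse promoters were not used here. Actc1 and Ptch1 are shown because they had the largest margins of the contractile and hedgehog lists. Actc1 was the only 1 of the 29 with a CArG box, the element bound by serum response factor in muscle genes, which 1.64% of 33469 rat promoters hold. The GLI core CCACCCA was in 4 of the 29 (13.8%, against 8.87% of all promoters), Col23a1, Negr1, Ptch1 and Ptx3, and its longer form GACCACCCA, added after the first search, in Ptch1 alone (0.385% of all). The longer form contains the core, and both strands were searched. Capitals mark the CArG box in the Actc1 promoter (GRCr8 chr3:121271778-121271927, minus strand) and the longer GLI form, read on the opposite strand, in that of Ptch1 (GRCr8 chr17:1555321-1555470, plus strand).
Actc1: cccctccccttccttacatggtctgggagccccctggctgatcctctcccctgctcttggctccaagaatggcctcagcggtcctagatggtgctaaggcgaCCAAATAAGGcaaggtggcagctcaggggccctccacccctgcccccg
Ptch1: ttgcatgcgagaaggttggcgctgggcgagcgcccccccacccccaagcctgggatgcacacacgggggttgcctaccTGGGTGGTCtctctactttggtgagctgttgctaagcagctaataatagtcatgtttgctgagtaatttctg
The CArG box begins 2 bases after the annotated gene start and the GLI form 172 bases before it. TATAAA was in 4 promoters (Avpr1a, Lrrc17, Plcb1 and Postn) against 14.2% of all, the heat shock element GAANNTTC in 1 (Pdgfd) against 8.59%, and the AP-1 element TGANTCA in 1 (Cntn1) against 7.33%. A match is a description of letters and not of binding.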

How the data were processed

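The authors deposited linear intensities, 1 value for each probe set on each array. How they were scaled and summarised is not given in the sources used here. Per the labels' descriptions, each pooled RNA was labelled 2 times. The intensities were quantile normalised within a table, 64 control probe sets were left out beside 45037 others, and 23971 mouse probe sets were tested. Fits used limma 3.58.1 in R 4.3.3 (lmFit, eBayes with an intensity trend) on log2(intensity + 16) over all 6 mouse arrays, and each of 3 rat designs alone. A call needed a Benjamini-Hochberg adjusted p under 0.05 over the whole table and a 2-fold difference. The fits were tested on simulated data.

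Platform annotation, which can be old, gave 34945 mouse probe sets 1 gene symbol and 932 several, and those with several were not named. A gene was represented by its brightest such probe set by mean log2 over the 6 arrays, 12368 of 18193 being tested. Genes named were drawn from the 15 largest margins, list members outside the range, the first tested members of a list, the extremes within the range, those nearest the 2-fold limit, and up to 4 list members a list called within the range. Not every first tested member, nor every list member called within the range, is named. Other names complete the 40 or a short count and were chosen after their values were seen. The members and the gene lists were chosen with earlier results of these data known. Rat genes were matched by symbol. Alternatives tried were the scaling, pseudocount, filter, a test against 1.5-fold, probe set averaging, the linear mean, a replicate block and leaving out each array.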

Additional observations from a re-analysis of the deposited data

How the results depend on the processing

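The count of 40 genes above both tissues was 47 with values as deposited, 50 with each array divided by its median, 53 with a pseudocount of 1, 29 with a pseudocount of 64, 38 in the test against a 1.5-fold difference, 32 with the mean of all probe sets, and 40 without the filter, without the intensity trend and with the replicate block, which kept all 40 genes. Same-numbered arrays deviated together (r = 0.467 between stalk and tip, 0.424 between stalk and mesenchyme, 0.566 between tip and mesenchyme), but the labels tie no numbers, so the block is given only here. A pseudocount of 64 gave 119 genes and 183 probe sets higher than the mean, 8 probe sets lower, 37 probe sets above both and 2 below both. The mean of all probe sets gave 144 genes higher. The linear mean as the comparator gave 114 genes higher and 27 lower, and 197 probe sets higher and 51 lower, because it lies above the log2 mean. Other causes were not tested. The median position of tip-high and mesenchyme-high genes was 0.45 and 0.328 with values as deposited, 0.463 and 0.311 with each array divided by its median, and 0.451 and 0.456 for genes 8-fold apart.

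Leaving out 1 array at a time, where a lone array is assumed to vary like the others, gave 39 to 43 genes and 65 to 79 probe sets above both, 1 gene and 5 to 8 probe sets below both, 212 to 241 genes and 352 to 417 probe sets higher, 5 to 6 genes and 14 to 16 probe sets lower, and positions of 0.421 to 0.443 and 0.33 to 0.365. Counted over named genes and settings, 464 values kept their direction and side of the limit, 28 lost the call and 0 turned. Scaling moved the median difference from the mean over all genes between -0.04 and 0.03. In rat, each alternative kept 0 genes higher in bud and Sfrp2 alone in mesenchyme.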

Other observations

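Further genes higher in mesenchyme than in tip had mean stalk intensities above both without passing the 2-fold limit over mesenchyme. They are the 5 with the lowest positions besides the genes above both, taken after their values were seen. Olfml3, a secreted olfactomedin-domain protein, averaged 920.1 in stalks, 93.8 in tips and 472 in mesenchyme, and Masp1, a serine protease of the complement system, 504 in stalks, 32.1 in tips and 250.1 in mesenchyme. Zeb2, a zinc finger repressor of epithelial genes, averaged 677 in stalks, 68.4 in tips and 365 in mesenchyme, and S1pr3, a receptor for sphingosine 1-phosphate, 3125 in stalks, 242 in tips and 1742 in mesenchyme. Isl1, a LIM homeodomain factor, averaged 301 in stalks, 22.8 in tips and 170.1 in mesenchyme. Near the tip level, though not the highest on the scale, the genes Mfap3l and Map3k21 had stalk positions of 0.934 and 0.968. They too were taken after their values were seen. Mfap3l averaged 418 in stalks, 446 in tips and 20.7 in mesenchyme, and Map3k21 403 in stalks, 415 in tips and 28.4 in mesenchyme. No explanation was tested for these values.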
